A study of Mus musculus with 6 samples.

Results

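The genes described here are those whose signal in AGO2 precipitates, read against both available references, differed between the arrays of the 2 Dicer genotypes. For each gene, the AGO2-RIP signal was set against the IgG-RIP signal and against the input signal, and the KO value was subtracted from the WT value, which gave 2 differences per gene. A gene was a member when both differences had the same sign and each was at least 1 on the log2 scale, that is 2-fold. Of 34755 genes with a usable probe, 12438 had a signal well above background on all 6 arrays, and 1323 of these were members. In 844 of them the WT value was the higher (6.79% of the genes measured on all arrays) and in 479 the KO value was the higher (3.85%). These sets are called WT higher and KO higher below.

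The cells were macrophages grown from bone marrow for 7 days in medium with L929-conditioned supernatant. The labels give male mice of 6 to 8 weeks with the genotypes LysM-Cre/Dicer wt/wt/Apoe-/- (WT) and LysM-Cre/Dicer flox/flox/Apoe-/- (KO), so by the labels both groups carried the Cre transgene and lacked Apoe. LysM-Cre drives recombination in myeloid cells, and how complete the deletion of Dicer was is not stated in the labels. From each genotype, RNA of the cleared lysate (input), RNA bound to beads with a mouse monoclonal antibody to AGO2 (AGO2-RIP, 7 hours) and RNA bound to beads with control IgG (IgG-RIP) were each hybridised to 1 Cy3 array. There was thus 1 array per group, no difference has a replicate check, no p-value is given, and passing 2-fold describes how large a difference was, without testing it.

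Dicer cuts hairpin precursors into mature miRNAs, and AGO2 is an Argonaute protein that holds a mature miRNA and, through it, the transcripts that pair with the miRNA's seed. A transcript that is bound through miRNAs would therefore have more signal in an AGO2 precipitate of cells with Dicer than of cells without it. Proteins of the GW182 family link Argonaute to the deadenylases that shorten the poly(A) tail of the bound transcript. IgG-RIP records what sticks to the beads, and input records how much of the transcript was in the lysate.

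The let-7 miRNAs are shown first because, of the 27 gene lists used here, that of their known targets held the highest share of WT higher genes. Bases 2 to 8, the seed, are in capitals, and sequences are the mature miRNAs of RefSeq (GRCm38.p6). The seed GAGGUAG is shared by let-7a, let-7i and miR-98. Mature miR-15a and miR-29a, whose target lists came next, have other seeds.
let-7a: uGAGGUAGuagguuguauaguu
let-7i: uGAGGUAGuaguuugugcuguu
miR-98: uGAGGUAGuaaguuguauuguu
miR-15a: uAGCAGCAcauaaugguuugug
miR-29a: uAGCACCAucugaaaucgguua

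The array probes of 60 bases hold a small piece of each transcript, and some of them contain the 7 bases CTACCTC that pair with the let-7 seed. The letters were searched in the sense of the probe only, and a match is a description of the probe, not a bound site. The match was present in 42 of the 12438 probes (0.338%), in 9 of the 844 WT higher probes (1.07%) and in 2 of the 479 KO higher probes (0.418%). The 8 WT higher genes with an assigned symbol are shown with the 30 bases around the match, which is in capitals.
Aven: agcagccaacacCTACCTCtgtgtttgatg
Glmn: tcaaatcaaagtCTACCTCtgaagaaaatg
Slc2a12: agccgtctacttCTACCTCtggttttttaa
Pbx2: tgactcggatatCTACCTCggagggagttt
Slc66a1: atctacCTACCTCaatctgactgtactctt
Eif4e2: gcgtgcttaacCTACCTCccaacaccatta
Lamtor4: tggagttgggcttgtgctcaCTACCTCctt
Arhgef39: CTACCTCctatgttctataatttatttccc

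In mm9 coordinates of the array files, these probes lay at chr2:112471168-112471227 (Aven, plus strand), chr5:107978084-107978143 (Glmn, minus), chr10:22424022-22424081 (Slc2a12, plus) and chr17:34733355-34733414 (Pbx2, plus). The others lay at chr4:138854486-138854545 (Slc66a1, minus), chr1:89122748-89122807 (Eif4e2, plus), chr5:138700431-138700490 (Lamtor4, plus) and chr4:43509018-43509077 (Arhgef39, minus). The part of each transcript that the probe covers was not analysed here. Aven, an inhibitor of apoptosis, came first of these genes, with WT minus KO values of 3.19 over IgG-RIP and 2.49 over input. A second probe of Aven gave only 0.39 and 0.34, and by the first its WT AGO2-RIP signal was only 0.20 above WT input. For Lamtor4, a subunit of the lysosomal Ragulator complex, the values were 1.78 and 1.10. The smallest value of Arhgef39, a guanine nucleotide exchange factor, was 1.08 over input, close to the threshold.

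Between 37.6% and 46.3% of the 59305 non-control spots of an array were well above background, and no spot was saturated (0 on each array). Spots of the same probe, printed 10 times, had an SD of 0.15 to 0.18 on the log2 scale, and propagating this spread gave an SD of 0.34 for the difference over IgG-RIP and 0.32 for that over input. Culture, precipitation and amplification are not in these SDs. Macrophage markers were well above background on all 6 arrays for 11 of 12 genes, against 0 of 9 fibroblast, 0 of 6 B cell, 0 of 6 mast cell and basophil, 1 of 10 neutrophil, 1 of 7 T and NK cell and 1 of 6 erythroid markers. The exception was Lyz2, the gene at whose locus LysM-Cre lies, whose input signal was 5.66 in KO and -2.19 in WT, the latter not well above background. Lyz2 was well above background on all 3 KO arrays and not on WT input or WT AGO2-RIP, although the labels give both groups the same Cre. Xist, which female cells transcribe from the silenced X, passed the background flag on 3 WT and 0 KO arrays, and the Y-linked Ddx3y on 3 KO and 0 WT arrays, so that the WT arrays went against the labelled sex. All KO arrays lay on row 1 and all WT arrays on row 2 of 1 slide. Dicer genotype, sex, the state of the Lyz2 locus and slide row cannot be told apart in any value below.

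The difference over IgG-RIP was the less selective of the pair: 21.9% of the measured genes were at least 2-fold higher in WT over IgG-RIP and 13.7% in KO, against 10.3% and 6.78% over input. Both differences contain the same 2 AGO2-RIP arrays, so a shared sign is partly built in. They had the same sign in 9000 genes (72.4%), 4819 of them positive and 4181 negative. Only 36 genes were past 2-fold in both with opposite signs. The medians of the measured genes were 0.13 over IgG-RIP and 0.00 over input, and those of the WT higher genes were 1.85 and 1.38.

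The number of members on each side depended on how the arrays were scaled to each other. With each array set on its 75th percentile, 63.8% of the members were WT higher. That share was 85.5% with the arrays centred on their median, 52.1% with quantile normalization, 80.0% with another background correction (normexp), and 34.9% with the 75th percentile taken over the probes above background on all arrays. Under these settings the median of all genes was 0.44 over IgG-RIP and 0.22 over input with median centring, and -0.25 and -0.20 with the percentile over detected probes. No gene passed from WT higher to KO higher or back under any of them (0 genes). Median centring and the percentile over detected probes shift all genes alike, by less than a switch needs, so they could not show one. With a gene's second brightest probe in place of the brightest, 1 gene switched side.

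**Figure D1:**
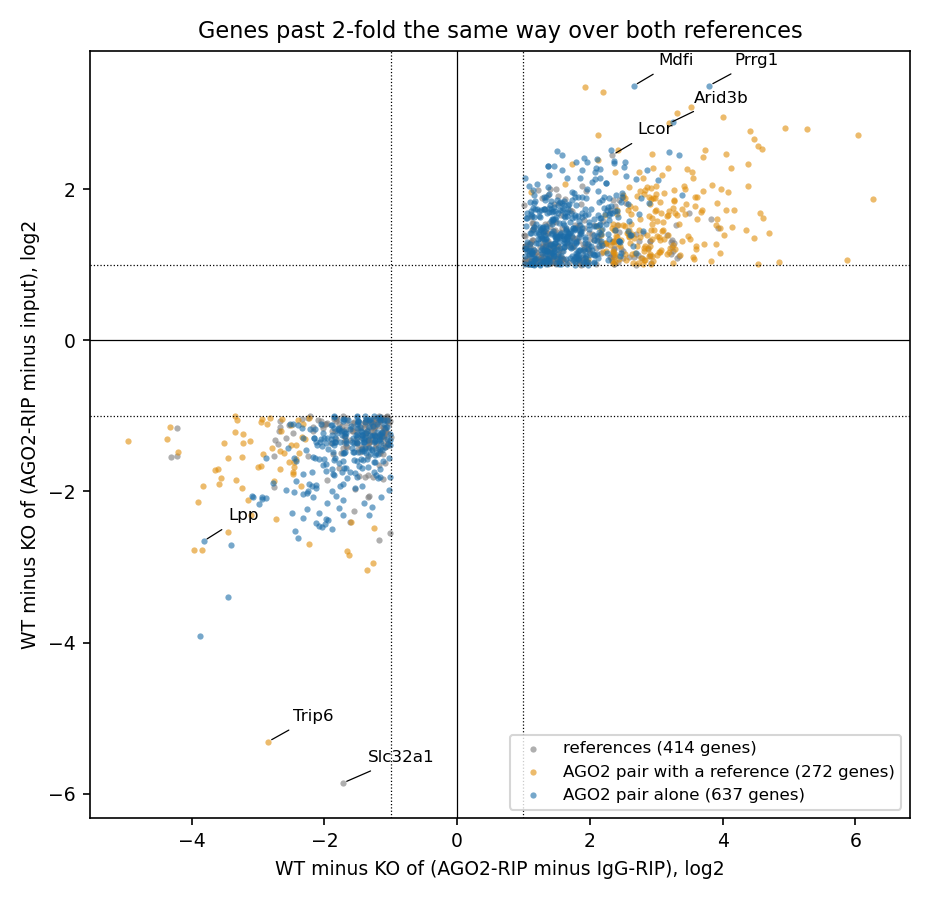
Each point is a member, placed by its WT minus KO difference of AGO2-RIP minus IgG-RIP (horizontal) and of AGO2-RIP minus input (vertical), both log2. The 2-fold limits are dotted, and colours give the classes by array pair described below. The 844 WT higher genes lie at the upper right and the 479 KO higher genes at the lower left, where Slc32a1 and Trip6 reach -5.86 and -5.31 over input.

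Since each difference is the WT minus KO change of AGO2-RIP less that of a reference, the arrays behind every member can be read off. In 397 WT higher genes (47%) the AGO2-RIP pair differed by at least 1 while the IgG-RIP pair and the input pair each differed by less than 1, a class called AGO2 pair alone. In 207 (24.5%) the AGO2-RIP pair and a reference pair both passed 1, and the reference was IgG-RIP, lower in WT, in 199 of them. In the remaining 240 (28.4%), a class called references, the AGO2-RIP pair stayed under 1, so that references lower in WT had to make up the rest. The IgG-RIP pair reached 1 in 96 and the input pair in 23. The median WT minus KO value of this class was 0.81 on AGO2-RIP, -0.86 on IgG-RIP and -0.46 on input. The AGO2-RIP pair could thus still give the larger part of a difference. Over all measured genes, the AGO2-RIP pair was at least 2-fold higher in WT in 10.5% and in KO in 4.74%, the IgG-RIP pair in 7.85% and 11.6%, and the input pair in 1.11% and 0.868%. The KO higher genes split into 240 (50.1%), 65 (13.6%) and 174 (36.3%) over the same classes.

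The array that lay farthest from the median of the 6 was WT AGO2-RIP for 337 WT higher genes (39.9%), WT IgG-RIP for 269 (31.9%) and KO AGO2-RIP for 123 (14.6%). Over all measured genes WT AGO2-RIP was the farthest for 15.2%, WT IgG-RIP for 25.9% and KO AGO2-RIP for 6.89%. The member rule itself picks WT higher genes for high WT AGO2-RIP, low KO AGO2-RIP, low WT references or high KO references. It picks KO higher genes for the reverse. An excess of such arrays is therefore partly built in, and the shares are a description only. For KO higher genes it was KO input in 134 (28.0%, against 12.7% of all), WT AGO2-RIP in 116 (24.2%), WT IgG-RIP in 76 (15.9%) and KO AGO2-RIP in 58 (12.1%). A low signal on the WT IgG-RIP array raises the difference over IgG-RIP in WT, and 149 WT higher genes (17.7%) lay there within 1 of the dimmest spot well above background, against 6.68% of all measured genes. On KO AGO2-RIP, 51 WT higher genes (6.04%) lay that near the limit, against 2.52% of all. Among KO higher genes, 101 (21.1%) lay that near the limit on WT input, against 8.55% of all, 83 (17.3%) on KO input, against 3.43%, and 70 (14.6%) on WT AGO2-RIP, against 2.44%.

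**Figure D2:**
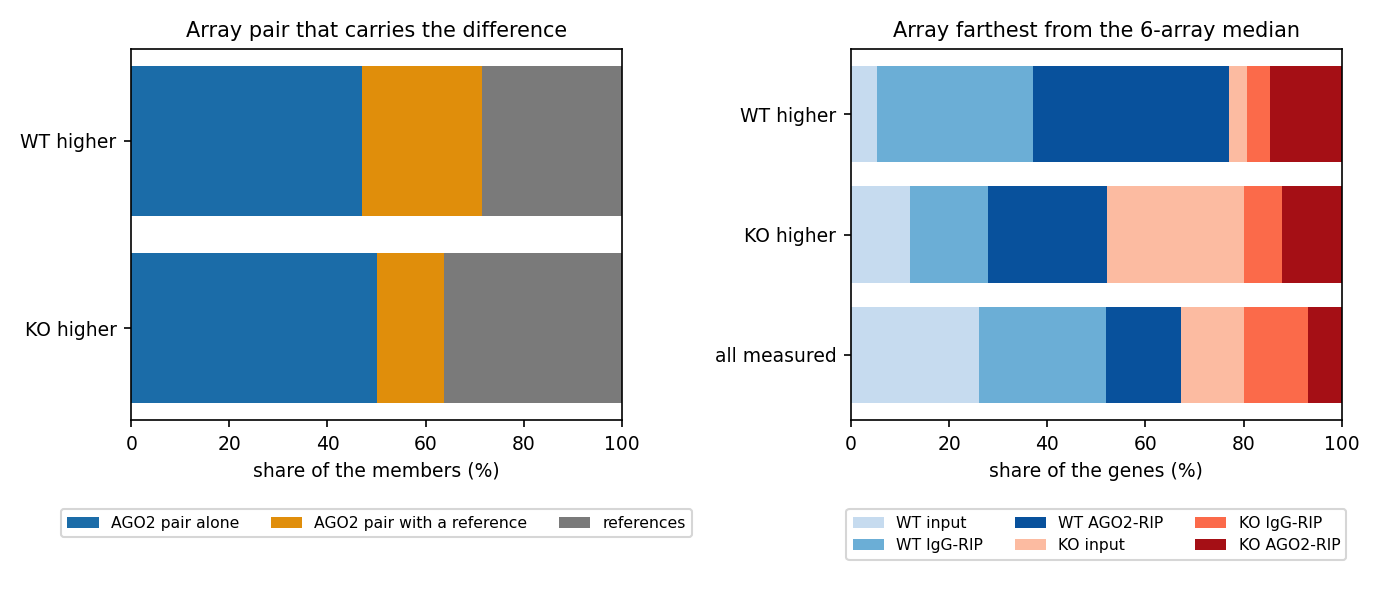
Left, shares of the WT higher and KO higher members in the classes AGO2 pair alone, AGO2 pair with a reference, and references (AGO2-RIP pair under 1). Right, shares by the array farthest from the 6-array median, beside the same for all 12438 measured genes. WT AGO2-RIP takes 39.9% of the WT higher genes, which the member rule picks partly for a high value on that array.

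WT higher does not by itself mean enriched in WT. Of the 844, 313 were at least 2-fold above both references in WT and not in KO, 76 were above both in both genotypes, 5 were above both in WT and below both in KO, 105 were below both in KO alone, and 345 passed 2-fold against both references in neither genotype. Over all measured genes, 7.74% were above both references in WT and 2.83% in KO, and 3.42% and 4.2% were below both. Of the KO higher genes, 104 were at least 2-fold below both references in WT alone 38 were above both in KO alone, 2 were both at once, and 335 were neither. Their median AGO2-RIP signal in KO was 1.11 over input but 0.32 over IgG-RIP, and in WT it was -0.37 over input and -1.38 over IgG-RIP.

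Protein-coding genes made up 86.3% of the WT higher and 55.1% of the KO higher genes, against 66.1% of all measured genes. Intergenic lincRNA probes gave 5.69% of the WT higher and 20.0% of the KO higher genes, against 13.0% of all. Genes without a RefSeq match gave 6.75% and 19.6%, against 17.9%. The median GC content of the probes was 43.3% in WT higher and 45% in KO higher and in all measured genes, and 2.84% and 4.59% of the genes lay on the X chromosome, against 3.47%.

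The first gene with an assigned symbol in the class AGO2 pair alone was Prrg1, which encodes a transmembrane protein with a gamma-carboxyglutamate domain (mm9 chrX:75695297-75695356, minus strand). Its scaled log2 signal was 1.22 on WT AGO2-RIP, above -0.53 on WT IgG-RIP and 0.16 on WT input, and -1.93 on KO AGO2-RIP, below 0.11 on KO IgG-RIP and 0.38 on KO input. WT AGO2-RIP was thus the highest and KO AGO2-RIP the lowest of the 6 values, and the 4 references lay between. The WT minus KO difference was 3.80 over IgG-RIP and 3.37 over input, or 13.9-fold and 10.4-fold. Its KO AGO2-RIP value lay within 1 of the dimmest spot well above background on that array (-2.54). The KO AGO2-RIP values of Exog, Mdfi, Gpn2 and Cdc42ep2, described next, lay that near the limit too.

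Exog, which encodes a mitochondrial endo- and exonuclease, was next among the genes of this class (mm9 chr9:119374500-119374559, plus strand). Its signal was 1.34 on WT AGO2-RIP, with -1.22 on IgG-RIP and -0.55 on input, and -1.58 on KO AGO2-RIP, with -0.89 and -0.58. Here too the WT and KO precipitates were the extremes, and the differences were 3.25 and 2.90. Mdfi, an inhibitor of myogenic transcription factors (chr17:47952285-47952344, minus), gave 0.80 on WT AGO2-RIP and between -2.06 and -1.32 on the other 5 arrays. Of its differences of 2.66 over IgG-RIP and 3.37 over input, the WT enrichment made up 2.22 and 2.63, and the rest was a KO AGO2-RIP value below both KO references.

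Pcgf1, a Polycomb ring finger protein, was also highest on WT AGO2-RIP, but unlike Mdfi its KO AGO2-RIP value lay above KO IgG-RIP. It gave 1.31 on WT AGO2-RIP against -1.71 on IgG-RIP and -1.0 on input, and -0.90 on KO AGO2-RIP against -1.56 and -0.83. Med12, a subunit of the Mediator kinase module, gave 2.03 on WT AGO2-RIP against 0.03 and 0.66, and -0.14 on KO AGO2-RIP against 0.37 and 0.77. Gpn2, a GPN-loop GTPase, gave 1.10 against -1.14 and -0.30 in WT and -1.67 against -1.60 and -0.55 in KO. In these genes the WT AGO2-RIP array stood alone above the other arrays, and the smaller of the differences lay at 2.36 for Pcgf1, 2.30 for Med12 and 2.31 for Gpn2.

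In Aven, Cdc42ep2 and Dcxr the KO precipitate was the lowest array. The signal of Aven was 1.45 on WT AGO2-RIP, 0.50 on WT IgG-RIP, 1.25 on WT input, 1.11 on KO input and 1.07 on KO IgG-RIP, but -1.18 on KO AGO2-RIP. WT AGO2-RIP was therefore only 0.20 above WT input, and a second probe of Aven gave 0.39 over IgG-RIP and 0.34 over input in place of 3.19 and 2.49. Cdc42ep2, an effector of the GTPase CDC42, gave -1.78 on KO AGO2-RIP and between -0.67 and 0.53 on the other arrays, with differences of 2.53 and 2.36. Dcxr, a carbonyl and xylulose reductase, gave -0.27 on KO AGO2-RIP, 1.58 on WT AGO2-RIP and 1.70 on KO input, with differences of 2.37 and 2.36. In S100a11-ps, a pseudogene whose probe may also pick up its parent gene, WT AGO2-RIP (2.38) was high and WT IgG-RIP (-1.35) was low, with differences of 3.35 and 2.46.

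On the KO higher side, Lpp led the named genes of AGO2 pair alone (chr16:24988828-24988887, plus). Lpp, a LIM domain protein of focal adhesions, had 2.15 on KO AGO2-RIP, above 0.34 on KO IgG-RIP and 1.09 on KO input, and -1.13 on WT AGO2-RIP, below 0.88 and 0.47. Its differences were -3.82 and -2.66, and it was past 2-fold above both references in KO and below both in WT. The exoribonuclease gene Eri2 gave 0.61 on KO AGO2-RIP and between -1.82 and -1.11 on the other arrays, with differences of -2.40 and -2.62. Dcdc2b, which encodes a doublecortin domain protein, gave 1.44 on KO AGO2-RIP and between -1.72 and -0.51 elsewhere, and its differences were -2.99 and -2.16. In these genes the KO precipitate was the highest array.

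In Vps52, Ms4a6b and Tbc1d31 the WT precipitate was the lowest array. Vps52, of the endosome-to-Golgi tethering complex GARP, gave -1.78 on WT AGO2-RIP, 0.81 on KO AGO2-RIP, 1.39 and 1.53 on the IgG-RIP arrays and -0.24 and -0.18 on the inputs, so the KO precipitate lay below its own IgG-RIP value. Its second probe gave -2.47 over IgG-RIP and -0.70 over input, in place of -2.45 and -2.53. Ms4a6b, a tetraspan membrane protein of immune cells, gave -1.96 on WT AGO2-RIP and 0.29 on KO AGO2-RIP, with references between -1.44 and -0.51. Tbc1d31, a protein of centriolar satellites, gave -1.55 and 0.73, with references between -1.04 and 0.32. The WT AGO2-RIP values of Vps52, Ms4a6b and Eri2 lay within 1 of the dimmest spot well above background on that array (-2.62). The prohormone convertase gene Pcsk2 (-2.49 and -2.29), the ubiquitin ligase gene Arih2 (-2.08 and -2.29), Ermard (-2.08 and -2.46, by a second probe -0.53 and -0.79) and the antisense transcript Zeb2os (-2.26 and -2.23) completed the 10 named genes. In Pcsk2, Arih2 and Ermard the KO precipitate was the highest array (1.73, 1.16 and 1.25). Whether the labelling kept the strand is not stated in the labels, so Zeb2os cannot be told apart from an overlapping sense transcript.

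**Figure D3:**
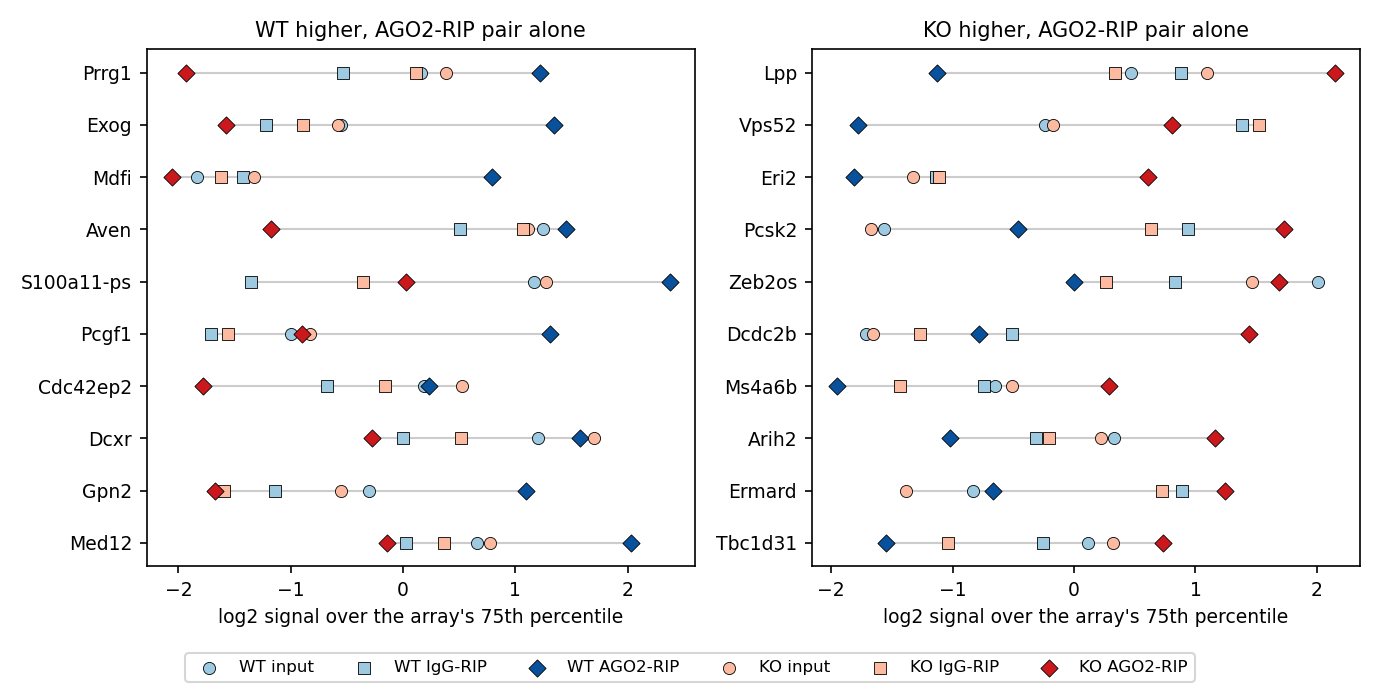
Signal on the 6 arrays (log2 over the array's 75th percentile, 1 value per array) for the 10 first named genes of AGO2 pair alone on each side; diamonds are AGO2-RIP, squares IgG-RIP and circles input, blue for WT and red for KO. For Prrg1 the WT precipitate (1.22) and the KO precipitate (-1.93) bracket the references, while for Aven the KO precipitate (-1.18) stands alone.

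In the next class a reference pair differed as well. Vps8, of the endosomal tethering complex CORVET, gave 2.67 on WT AGO2-RIP, 0.05 on KO AGO2-RIP, -1.67 on WT IgG-RIP and 0.97 on KO IgG-RIP, with inputs of 1.83 and 2.0. Its difference was 5.27 over IgG-RIP and 2.81 over input, and WT IgG-RIP was the outlying array. Bcs1l, an assembly factor of respiratory complex III, gave 1.88 on WT and -1.16 on KO AGO2-RIP, -0.26 and 1.65 on IgG-RIP and 1.42 and 1.20 on input, with differences of 4.94 and 2.81. A second probe of Bcs1l gave 4.45 and 2.54. Fam78a had differences of 3.52 and 3.09, with 1.76 on WT AGO2-RIP and between -0.90 and 0.54 on the other arrays.

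On the KO higher side of the same class stood Trip6, a LIM domain adaptor of focal adhesions and, like Lpp, a member of the zyxin family. Its signal was 1.79 on KO AGO2-RIP, 0.61 on KO IgG-RIP, -1.47 on KO input, -2.43 on WT AGO2-RIP, -0.76 on WT IgG-RIP and -0.38 on WT input. The differences were -2.85 and -5.31, and -2.43 lay within 1 of the dimmest spot well above background on that array (-2.62). Sap25, a component of the Sin3 corepressor complex, had differences of -2.73 and -2.37, but its KO AGO2-RIP value of 2.08 was below the 2.54 of KO IgG-RIP. The aspartyl-tRNA synthetase gene Dars gave -3.10 and -2.31 and the U2 small nuclear RNA gene Rnu2-10, whose near-identical copies share its probe, -2.24 and -2.70.

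Some members had nearly equal AGO2-RIP signals in both genotypes. Lcor, a ligand-dependent nuclear receptor corepressor and a known target of miR-10a, was the clearest case (chr19:41636163-41636222, plus). Its signal was 2.65 on WT and 2.59 on KO AGO2-RIP, 0.42 on WT and 2.82 on KO input, and -0.29 on WT and 1.99 on KO IgG-RIP. The differences of 2.34 and 2.45 came from the references, whose WT minus KO values were -2.29 (IgG-RIP) and -2.40 (input), while that of AGO2-RIP was 0.05. Dnmt3a, a DNA methyltransferase, had the same form, with 3.81 and 3.72 on AGO2-RIP, 1.69 and 3.33 on IgG-RIP and 2.18 and 3.33 on input.

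Among the other named genes of this class, Erlin2, a protein of the endoplasmic reticulum, had 4.23 and 3.33 on AGO2-RIP, 1.09 and 2.13 on IgG-RIP and 2.13 and 3.21 on input. Arid5b, a DNA-binding protein, had differences of 2.49 and 1.90, and Zwint, a kinetochore protein, of 2.44 and 1.86, with 1.17 and 0.74 by a second probe. Slc32a1, which loads GABA and glycine into synaptic vesicles, was KO higher by -1.72 and -5.86, with 4.83 on WT input and between -0.39 and 0.92 on the other arrays. The bright WT input bears on the -5.86 only, and the -1.72 over IgG-RIP is made of WT minus KO values of -0.64 on AGO2-RIP and 1.08 on IgG-RIP. Its second probe gave -0.42 and 0.13. Myl2, a cardiac myosin light chain, likewise had 4.36 on WT input and between 1.07 and 2.47 elsewhere, and Cep152, a centrosome scaffold, was higher on WT input (0.76) and WT IgG-RIP (0.75) than on any other array.

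At the limit of 2-fold, the members just inside were Lockd (1.78 and 1.00) and Rab11a (1.87 and 1.00) on the WT higher side, and Nfib (-2.22 and -1.0) and Top3b (-1.51 and -1.0) on the KO higher side. Just outside were Dag1 (1.00 and 1.27), Hba-a1 (1.00 and 1.58), Nfe2l1 (-1.0 and -1.26) and Muc13 (-1.34 and -1.0).

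A second probe was measured for 191 WT higher genes. It was past 2-fold the same way in 74 of them (38.7%), had both signs the same way in 139 and both reversed in 16. For the 86 KO higher genes with a second probe, 19 (22.1%) were past 2-fold the same way, 60 had the same signs and 13 had both reversed. Over the 2667 measured genes with a second probe, that probe was past 2-fold in 9.37% on the WT higher and in 3.94% on the KO higher side. By class, the share past 2-fold ran from 33.3% (AGO2 pair alone) to 43.8% (references) on the WT higher side, and from 9.68% (references) to 31.8% (AGO2 pair alone) on the KO higher side.

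Of 28 let-7 targets, 18 were measured on all arrays, and 12 of these (66.7%) were WT higher and 0 KO higher, beside 6.79% and 3.85% of all measured genes. These shares over all genes stand beside each list below. Protein-coding genes made up 86.3% of the WT higher and 55.1% of the KO higher genes, against 66.1% of all. A list of protein-coding genes thus starts above 6.79% and below 3.85%. Both differences were positive in 16 and both negative in 1. The list medians were 1.54 over IgG-RIP and 1.26 over input, and under the other scalings they stayed between 1.16 and 1.86 and between 1.05 and 1.48, with 9 to 13 WT higher genes. The AGO2-RIP pair alone carried 4 of the 12, and the pair with a reference 5. In the other 3 the AGO2-RIP pair stayed under 1 but still gave part of each difference. Its WT minus KO value was 0.997 for Bach1 (differences of 1.32 and 1.74), 0.87 for Cdc25a (1.52 and 1.14) and 0.84 for Tgfbr1 (2.30 and 1.73). The list was written with earlier results of these arrays known, and its members Bach1, Cdc25a and Ccnd2 also stand in other lists.

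Hmga2, a chromatin protein and classic let-7 target, was carried by the AGO2-RIP pair alone (chr10:119800621-119800680, minus). It gave 5.55 on WT and 4.28 on KO AGO2-RIP, with 2.20 and 2.35 on IgG-RIP and 2.08 and 2.35 on input. Both precipitates were above every reference, and WT exceeded KO by 1.43 over IgG-RIP and 1.54 over input. E2f6, a repressor of the E2F family, gave 2.57 and 0.63 on AGO2-RIP, -0.77 and 0.03 on IgG-RIP and 0.54 and 0.27 on input, so that the KO precipitate lay near its references. The GTPase gene Nras gave 4.74 and 3.29, with 2.53 and 3.51 on IgG-RIP and 4.38 and 4.23 on input. In KO the Nras precipitate was thus below both references.

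Other let-7 targets were also higher in the KO references. Arid3b, a DNA-binding protein (chr9:57638549-57638608, minus), had the largest differences of the list, 3.19 and 2.87. Its AGO2-RIP signal was 4.47 in WT and 3.32 in KO, IgG-RIP was 0.35 and 2.39, and input was 0.12 and 1.84, so that the AGO2-RIP pair gave 1.15 of each difference. Its relative Arid3a gave 5.23 and 4.09 on AGO2-RIP, 1.60 and 2.20 on IgG-RIP and 1.67 and 2.87 on input. The zinc finger gene Plagl2 had differences of 2.50 and 1.92 and by a second probe of 2.16 and 2.85. Second probes of other members gave 3.55 and 1.88 for Hmga2 and 1.34 and 1.69 for Tgfbr1. They gave 0.75 and 2.18 for Arid3a and 1.15 and 0.44 for Nras. By these probes Arid3a fell short of 2-fold over IgG-RIP and Nras over input. For Cdc34, a ubiquitin-conjugating enzyme, the inputs were close (3.30 and 3.45) and the IgG-RIP arrays apart (0.97 and 2.98). Input was higher in KO for 12 of the 18 genes, by at least 2-fold for 2.

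Measured let-7 targets outside the members included Myc (0.15 and 0.96), Hmga1 (1.57 and 0.92), Igf2bp2 (0.26 and 0.95), E2f2 (0.74 and 0.27) and Trim71 (-1.27 and -0.43). Trim71, an RNA-binding protein of early development, was highest on WT IgG-RIP (1.79).

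**Figure D4:**
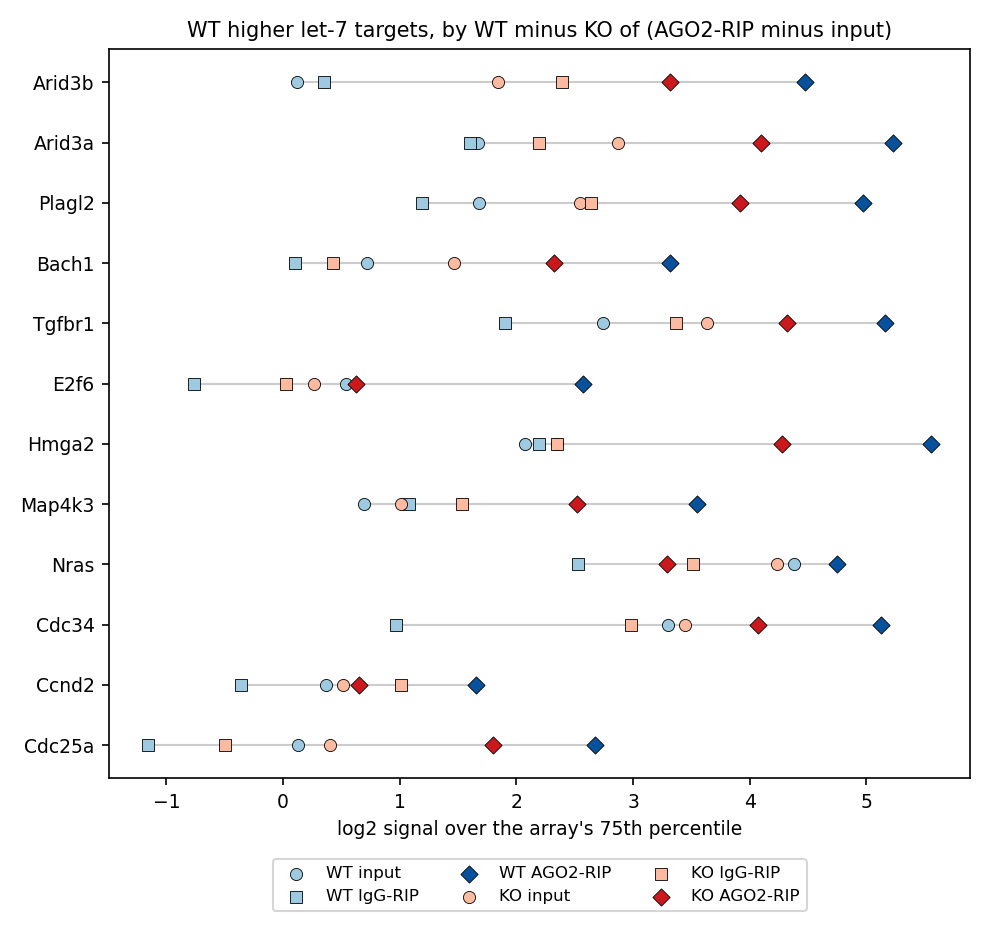
Signal of the 12 WT higher let-7 targets on the 6 arrays (log2 over the array's 75th percentile, 1 value per array), ordered by the WT minus KO difference over input; diamonds are AGO2-RIP, squares IgG-RIP and circles input, blue for WT and red for KO. The WT precipitate is the highest array for each of these 12 genes, from Arid3b (4.47) to Cdc25a (2.67).

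Targets of miR-15/16, which include cell cycle regulators, had 11 measured genes, of which 5 were WT higher and 1 KO higher, with medians of 1.52 and 1.15. Cyclin E1 (Ccne1) gave 4.80 on WT and 2.79 on KO AGO2-RIP, 0.53 and 0.98 on IgG-RIP and 0.42 and -0.28 on input. Its differences were 2.46 and 1.31, but a second probe gave -0.72 and -1.25. Chek1, a checkpoint kinase, was KO higher (-1.86 and -1.77) on dim signals, with -1.59 on WT AGO2-RIP and -0.09 on KO AGO2-RIP.

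Of 7 measured targets of miR-29, 3 were WT higher (42.9%, against 6.79% of all), with medians of 1.09 and 0.61. They were Tet2 and Tet3, which oxidise methylated cytosine, and the DNA methyltransferase gene Dnmt3a, while Tdg, a DNA glycosylase of the same list, was no member (1.09 and -0.11). Tet3 gave 3.28 and 2.17 on AGO2-RIP, but its difference of 3.92 over IgG-RIP rested on 0.76 and 3.58 on IgG-RIP, and its second probe gave 0.01 and 1.89. Tet2 gave 4.77 and 3.93 on AGO2-RIP, with 2.39 and 3.38 on IgG-RIP and 0.65 and 1.32 on input. In Tet2, Tet3 and Dnmt3a the IgG-RIP and the input signals were all lower in WT.

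The targets of the miR-17-92 cluster had 4 WT higher genes of 14 (28.6%, against 6.79% of all), with medians of 1.11 and 0.53. They were led by Mylip, a ubiquitin ligase that degrades the LDL receptor, with 4.38 and 2.92 on AGO2-RIP, -0.88 and 0.74 on IgG-RIP and 0.91 and 1.64 on input. The WT higher miR-155 targets were 3 of 14, namely Smad5 (2.16 and 1.47), Trp53inp1 (1.86 and 1.81) and Bach1 (1.32 and 1.74), and the WT higher miR-223 targets 2 of 15, Fbxw7 (1.25 and 1.23) and Parp1 (1.15 and 1.01). A second probe of Fbxw7 turned to -0.21 over input. Of the miR-21 targets 1 of 7 was WT higher, Tgfbr2 (1.15 and 1.5), and of the miR-146a targets 0 of 6, where Relb gave -2.10 over IgG-RIP and 0.08 over input. Of the miR-10a targets, Lcor was the member among 5 measured.

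Genes of the miRNA machinery had 2 WT higher members of 17 (11.8%, against 6.79% of all) and 0 KO higher, with medians of 0.69 and 0.62. Mov10, an RNA helicase that binds Argonaute, had nearly equal references, with 3.37 and 3.34 on IgG-RIP and 1.35 and 1.49 on input, against 5.99 on WT and 4.86 on KO AGO2-RIP, so the AGO2-RIP pair alone gave its 1.11 and 1.28. Tnrc6a, a GW182 protein, gave 3.16 and 2.49 on AGO2-RIP and had lower references in WT, with 0.18 and 0.91 on IgG-RIP and -0.95 and 0.38 on input. Ago2 itself differed by -0.17 over IgG-RIP and 1.03 over input. Dicer1 was not well above background on KO IgG-RIP and so was not measured, and its difference over input was -0.78. The labels do not name the floxed exons, so its probe checks neither the deletion nor the labels. Apoe, deleted in both genotypes by the labels, gave a signal well above background on every array (-0.83 to 1.20) and differed by 0.60 and -0.21.

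Among p53 targets, 4 of 18 were WT higher (22.2%, against 6.79% of all) and 0 KO higher, with medians of 0.96 and 0.77. The kinase gene Plk2 was carried by the AGO2-RIP pair alone, with 4.18 and 2.56 on AGO2-RIP, 1.39 and 1.40 on IgG-RIP and 0.24 and 0.09 on input. Trp53inp1, a stress-induced activator of p53, had differences of 1.86 and 1.81 and by a second probe of 1.96 and 2.32, Sesn2 had 1.32 and 1.45, and Zmat3 had 1.04 and 1.25. Stress response genes had 3 WT higher members of 12, namely Sesn2, Nupr1 (2.60 and 1.40) and the heme oxygenase gene Hmox1 (1.11 and 1.01), whose second probe gave -0.50 over input.

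Interferon-stimulated genes had 4 WT higher and 1 KO higher of 14, beside 6.79% and 3.85% of all measured genes, with medians of 0.81 and 0.65. Both differences were positive in 10 and both negative in 3. In 3 of the 4 WT higher genes the AGO2-RIP pair stayed under 1, and input was higher in KO for 12 of the 14. Irf9, the DNA-binding subunit of the interferon-activated factor, gave 3.94 and 2.35 on AGO2-RIP, -0.54 and 0.54 on IgG-RIP and 0.91 and 1.06 on input. Oas3, an oligoadenylate synthetase, went the other way, with -1.83 on WT and 1.47 on KO AGO2-RIP, -0.48 and 0.08 on IgG-RIP and 1.11 and 2.56 on input. Parp9 was WT higher by 1.57 and 1.49, but its second probe gave -0.46 and -0.37. Inflammatory genes had 1 member of 10, Tnfaip3, a feedback inhibitor of NF-kappaB (1.13 and 1.16), and Tnf was split, with -0.44 over IgG-RIP and 1.07 over input. The immediate early genes had 1 of 11, Fosb (1.68 and 1.81).

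Lipid handling genes had 3 WT higher members of 22 (13.6%, against 6.79% of all). The nuclear receptor gene Pparg gave 3.24 on WT and 1.41 on KO AGO2-RIP, with 0.12 and 0.07 on IgG-RIP and 1.78 and 1.59 on input, so its references were nearly equal and its differences of 1.78 and 1.63 came from the precipitates. The scavenger receptor gene Msr1 had the same form, with 4.45 and 2.86 on AGO2-RIP, 2.60 and 2.54 on IgG-RIP and 3.40 and 2.96 on input. A second probe of Msr1 gave differences of 1.41 and 0.60, short of 2-fold over input. Abca1, the cholesterol exporter, gave 5.17 and 4.61 on AGO2-RIP, and its differences of 2.54 and 1.82 rested on references lower in WT (2.28 and 4.26 on IgG-RIP, 2.50 and 3.77 on input). Ppard, another nuclear receptor gene and the WT higher member among 19 fatty acid oxidation genes, had 1.58 and 0.07 on AGO2-RIP.

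Of 88 respiratory chain genes 12 were WT higher (13.6%) and 2 KO higher (2.27%), beside 6.79% and 3.85% of all measured genes. Of 65 mitochondrial ribosomal protein genes 7 (10.8%) and 1 (1.54%) were. The medians of the respiratory chain were 0.90 and 0.31, and 7 of its 12 members were carried by the AGO2-RIP pair alone. Sdhc, a subunit of complex II, gave 4.13 on WT and 2.27 on KO AGO2-RIP, 2.72 and 3.36 on IgG-RIP and 4.51 and 4.55 on input. WT AGO2-RIP was thus below WT input, and Sdhc was WT higher over input because KO AGO2-RIP was lower still. A second probe of Sdhc gave differences of 0.97 and 1.13. Cox7a1, of cytochrome oxidase, was above its references in WT, with 5.01 against -0.42 and 1.73, and gave 3.08 against 1.10 and 1.61 in KO. Of the KO higher respiratory genes, Atp5g1, an ATP synthase subunit, had -1.05 and -1.02, but its second probe gave 0.75 and 0.34.

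Among the mitochondrial ribosomal proteins, Mrpl44 gave 4.29 and 2.82 on AGO2-RIP, with 0.43 and 0.97 on IgG-RIP and 1.55 and 1.81 on input. Mrpl14 was KO higher, by -2.14 and -1.55, with 0.47 on WT AGO2-RIP and between 1.67 and 3.87 on the other arrays. None of 79 cytosolic ribosomal protein genes was a member (0 on each side), and their medians went apart, 0.52 over IgG-RIP and -0.35 over input. Proteasome subunits had 1 WT higher member of 37, Psmb1 (1.76 and 1.47), and glycolysis and citric acid cycle genes had 1 KO higher of 28, Pdha1 (-1.85 and -1.30).

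Cell cycle genes had 6 WT higher members (20.7%) and 1 KO higher (3.45%) of 29, beside 6.79% and 3.85% of all measured genes. The phosphatase gene Cdc25b gave 3.16 and 2.10 on AGO2-RIP (1.5 and 1.38), and Top2a, a DNA topoisomerase, was KO higher by -3.35 and -1.21, with -1.31 on WT and 0.39 on KO AGO2-RIP. Numbered zinc finger protein genes had 15 (9.80%) and 6 (3.92%) of 153, and solute carriers 17 (12.4%) and 5 (3.65%) of 137. Their medians were 0.26 and 0.16 and 0.21 and 0.19, and the signs of these changed with the scaling. Zfp281 (2.72 and 1.92) led the zinc finger genes, while a second probe of Zfp318 turned from 2.98 and 1.71 to -0.20 and -0.27. Slc16a6 (1.95 and 2.01) led the solute carriers.

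Nuclear non-coding RNAs were the list with the lowest medians, -1.15 over IgG-RIP and -0.87 over input, and these stayed negative under each scaling (from -1.54 to -0.83 and from -1.07 to -0.49). Of 7 measured, 2 were KO higher and 0 WT higher. Malat1, a long RNA of nuclear speckles, gave 0.74 on WT and 1.84 on KO AGO2-RIP, 2.37 and 1.90 on IgG-RIP and -1.74 and -1.93 on input, so neither precipitate was above its IgG-RIP value. Snhg1, a snoRNA host gene, gave 0.44 and 1.16 on AGO2-RIP, 1.24 and 0.23 on IgG-RIP and 1.87 and 1.16 on input. Its AGO2-RIP pair differed by -0.71, and its references gave the rest.

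Among markers of cell types, Mrc1, a mannose receptor of macrophages, was WT higher (2.67 and 1.36), with 5.43 and 4.35 on AGO2-RIP and IgG-RIP values of 2.58 and 4.17. Mmp8, a neutrophil collagenase, was WT higher too (3.96 and 1.16), with 3.49 and 1.41 on AGO2-RIP, 0.96 and 2.84 on IgG-RIP and 3.30 and 2.39 on input. The summed level of the 10 neutrophil markers, as log2, ran from 1.56 to 3.68 on the WT and from 1.81 to 3.0 on the KO arrays, and 6 of the 10 were above background on no array. That sum mostly restates Mmp8, which alone gave 3.49 on WT AGO2-RIP (sum 3.68) and 2.84 on KO IgG-RIP (sum 3.0). Fewer cells of a type and less RNA per cell cannot be told apart in bulk RNA, and the part of other cells in these results was not tested.

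**Figure D5:**
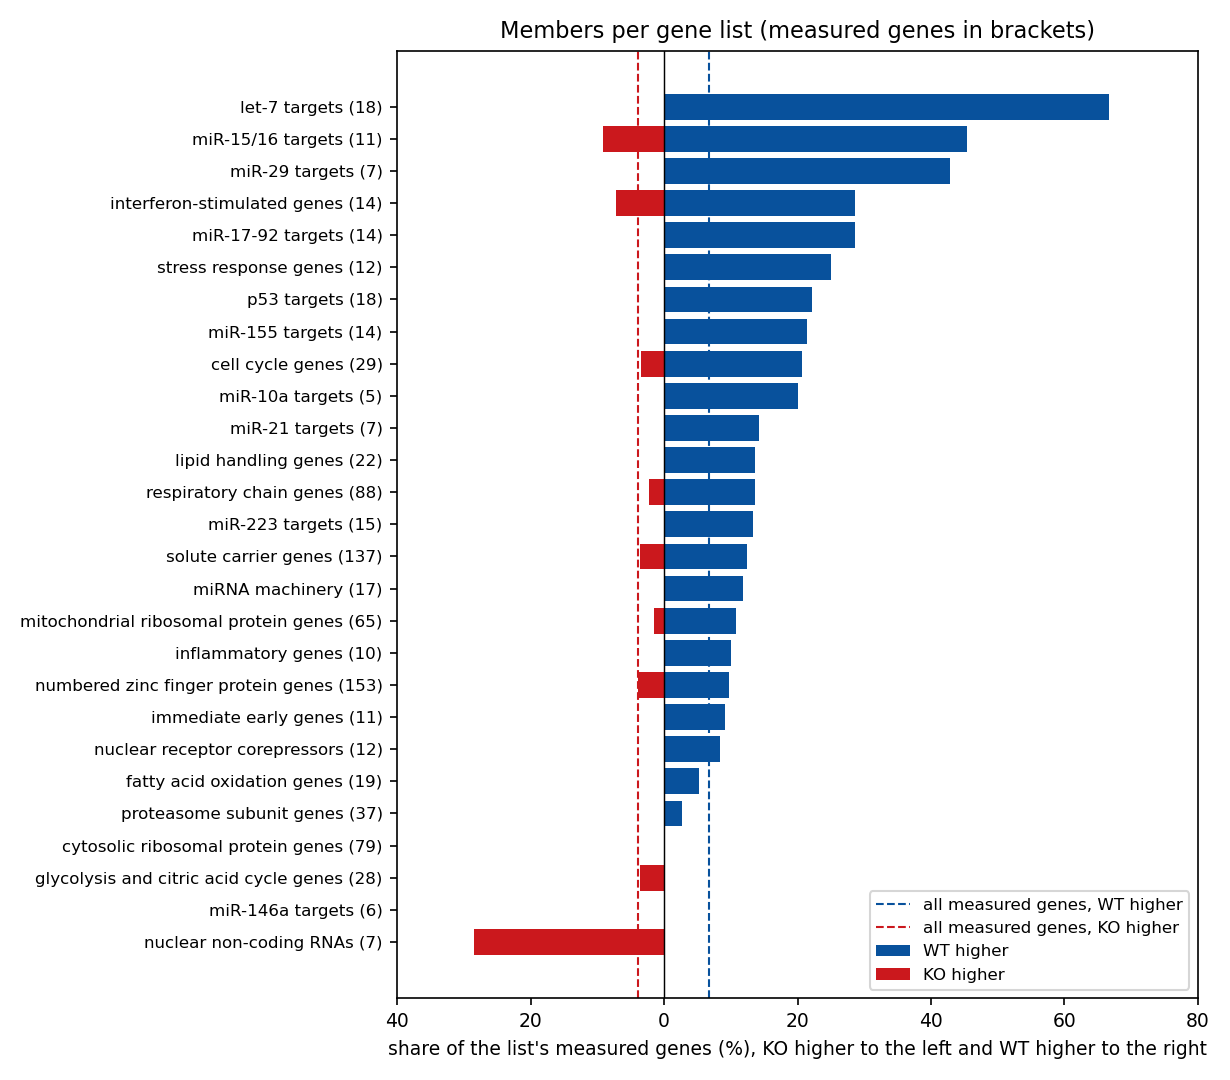
Share of each list's measured genes that were WT higher (right, blue) or KO higher (left, red), in percent, with the number measured in brackets and dashed lines at the shares over all measured genes (6.79% and 3.85%). Of the lists drawn, let-7 targets have the highest WT higher share with 12 of 18, and nuclear non-coding RNAs the highest KO higher share with 2 of 7; lists of 7 or fewer genes move by a large step with each gene.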

How the data were processed

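The deposited files are Agilent Feature Extraction 10.7.3.1 output for 1-colour Cy3 arrays of 60-base probes annotated on mm9, 1 array for each of the 6 samples, per the file headers and the submitters' processing notes. Per the labels' protocols, cDNA was pre-amplified and an equal amount of it from each sample was labelled with random primers, so values are relative abundances. The processed signal is an intensity after background subtraction and spatial detrending, with surrogate values for dim spots, per the file headers. The other columns used are deposited flags of 0 or 1 (well above background, saturated, outlier) and, for an alternative, the deposited mean and background intensity.

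From these, log2 of the processed signal minus the array's 75th percentile over non-control spots was taken. Spots of a probe were averaged, 54 probes with only outlier spots were dropped, and each gene took its brightest probe above background on all arrays. Names were updated through a RefSeq table (GRCm38.p6): an accession matched for 27656 probes, a symbol for 3401 and a synonym for 321, while the array's own name stayed on 24303. The differences are plain arithmetic with no test, and the procedure was tested on simulated data. The members and lists were chosen with earlier results of these data known. The named genes are the 10 first assigned symbols by the smaller difference in AGO2 pair alone and the 4 first in each other class per direction, Dicer1, Ago2, Lcor and Apoe, the highest and lowest list members, and the genes nearest the threshold. Genes of the let-7 site and of both sides were named for those features. Python 3.11.15, numpy 2.4.6, pandas 2.3.3, R 4.3.3 and limma 3.58.1 (normexp with offset 50, quantile normalization) were used. Alternatives changed the scaling, the background, the filter, the probe and the threshold. A few results on named genes are not reported here.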

Additional observations from a re-analysis of the deposited data

Results flagged for a closer look

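With 1 array per group, no value can stand apart within a group. In 4 named genes the WT and KO enrichments pointed in opposite directions, each past 2-fold against both references, and the difference between the genotypes was not tested. Prrg1 and Fyco1, an adaptor for the transport of autophagosomes, were above both references in WT and below both in KO, with WT minus KO values over IgG-RIP of 3.80 and 2.42. For Fyco1, AGO2-RIP gave 0.59 in WT and -0.47 in KO, IgG-RIP -0.57 and 0.79, and input -0.58 and 0.88. Trip6 and Lpp were below both references in WT and above both in KO, with -2.85 and -3.82. Each of the 4 genes was measured by 1 probe.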

How the results depend on the processing

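No paired analysis was possible because the labels give no replicate numbers and each group had 1 array, so no replicate could be left out either. The numbers of WT higher and KO higher genes, 844 and 479, moved to 1444 and 244 with arrays centred on their median, 482 and 899 with the 75th percentile over detected probes, 708 and 652 with quantile normalization, 631 and 158 with normexp, 2208 and 3239 without the filter on dim probes, 250 and 105 with the second probe, 205 and 93 at 3-fold, 2029 and 1372 at 1.5-fold, and 650 and 290 with signals at least 1 above the dimmest spot. With the median of a gene's probes they were 838 and 458.

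In the order AGO2 pair alone, with a reference and references, the WT higher genes (397, 207 and 240) became 755, 374 and 315 with median centring, 175, 107 and 200 with the detected-probe percentile, 311, 187 and 210 with quantile normalization, 351, 67 and 213 with normexp, 987, 720 and 501 without the filter, 119, 58 and 73 with the second probe, 89, 23 and 93 at 3-fold, 808, 888 and 333 at 1.5-fold, and 325, 135 and 190 with the higher signal limit. The KO higher genes (240, 65 and 174) became 113, 37 and 94, then 535, 132 and 232, then 388, 100 and 164, then 84, 12 and 62, then 1423, 930 and 886, then 42, 30 and 33, then 51, 4 and 38, then 628, 369 and 375, and 147, 36 and 107 under the same settings in that order. Fewer probes were tested with the second probe and the higher signal limit, and more without the filter. The cause of the other changes was not tested.

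Only a changed scaling, background, filter or probe can move the value of a named gene. Of 332 such values, 166 moved by more than the spread between repeat spots with the detected-probe percentile, which shifts all genes alike, 150 with normexp, 60 with the median of probes and 43 with quantile normalization. Without the filter on dim probes 1 moved. With the second probe, which only some of the named genes have, 60 moved, 13 reversed and 23 did neither. With the second probe, Atp5g1 gave 0.75 over IgG-RIP and 0.34 over input, Ccne1 -0.72 and -1.25, Parp9 -0.46 and -0.37, and Zfp318 -0.20 and -0.27. Over input alone, Fbxw7 gave -0.21, Hmox1 -0.50, Slc32a1 0.13 and Zfp672 0.13. Ncor1 gave 2.22 over IgG-RIP and 2.69 over input, in place of -2.91 and -0.66. With the median of probes, Ermard gave 0.44 over IgG-RIP and Tpm1 -0.14 over input, and Tpm1 gave -0.30 with quantile normalization. Dim signals limit the precision, and 1 array per group leaves the spread between cultures unmeasured.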

Other observations

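Genes that were dim on a single AGO2-RIP array fall outside the members, and their differences are bounds against the dimmest spot well above background there, or against the gene's own value where that was higher. Genes picked for a dim KO precipitate lean to WT higher by that choice, and those picked for a dim WT precipitate to KO higher, so the counts are a description only. On KO AGO2-RIP alone 80 genes were dim, and 27 of them (33.8%) were at least 2-fold WT higher over both references. Ext1, a glycosyltransferase of heparan sulfate synthesis, was at least 15.5-fold higher in WT over IgG-RIP and at least 9.82-fold over input, with 0.86 on WT AGO2-RIP, -1.63 and -1.08 on IgG-RIP and 0.95 and 0.85 on input. The sarcoglycan gene Sgcb followed with at least 6.65-fold and 5.27-fold, and Zbtb42 with at least 4.91-fold and 4.36-fold. On WT AGO2-RIP alone 70 genes were dim, and 28 of them were at least 2-fold KO higher. Bloc1s3, a subunit of the BLOC-1 complex of lysosome-related organelles, was at least 8.83-fold and 8.51-fold lower.

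Seed matches of other miRNAs in the probes were counted in the same way as for let-7. Of 9 seeds of miRNAs with a target list, the share of WT higher probes with a match ran from 0.237% (miR-155 and miR-10a, 2 probes each) to 1.78% (miR-15a, 15 probes, against 1.37% of all measured). The miR-146a seed had the same WT higher share as let-7, with 9 probes (1.07%). It also had 7 KO higher probes (1.46%), against 0.603% of all. The counts of 13 further miRNAs were added after the data were seen. Among them miR-23a had 15 WT higher probes (1.78%) and 1 KO higher (0.209%), against 0.852% of all, and miR-142a had 5 (0.592%) and 0, against 0.273%. For miR-24 the order was the other way, with 6 WT higher (0.711%) and 8 KO higher probes (1.67%), against 0.611%. No count was tested.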
